A study of Homo sapiens with 4 samples.

Results

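The 31 genes described here encode enzymes that build cholesterol and fatty acids, the regulators that switch these enzymes on, and a sterol carrier. They were taken by gene name from the 58870 genes in each expression table. No measured value entered the rule, although the list was drawn up with earlier results of these data known, and all 31 passed the filter on low counts. They comprised 18 sterol enzymes, 7 fatty acid enzymes and a set of 6 made up of SREBF1, SREBF2, INSIG1, INSIG2, SCAP and STARD4. The series holds 4 RNA sequencing libraries from BJ cells, a line of human foreskin fibroblasts grown with fetal bovine serum. In 2 libraries the cells had received 250 nM of a compound abbreviated as Dox in the labels, and in the other 2 they had received the solvent DMSO. The series design gives 24 hours of exposure followed by 10 days in which cells could become senescent, and the titles mark the Dox libraries as aged and the DMSO libraries as young. The cells thus stand for ageing only through this drug exposure, in 1 cell line. Nothing in the labels tells whether the libraries of a group came from separate cultures. The p-values therefore measure the spread between these 4 libraries only, and that spread may be technical.

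Animal cells make cholesterol from acetyl-CoA through mevalonate, farnesyl diphosphate and squalene, and make long-chain fatty acids from acetyl-CoA through malonyl-CoA. Both pathways are switched on by the SREBP transcription factors, which are made as precursors in the endoplasmic reticulum membrane. When sterols are scarce, the escort protein SCAP carries the precursors to the Golgi, where proteases release the active factor. When sterols are plentiful, INSIG proteins hold SCAP and its cargo in the endoplasmic reticulum. SREBP-2, the product of SREBF2, is best known for driving sterol genes, and SREBP-1c, one of the products of SREBF1, for driving fatty acid genes.

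SREBPs bind sterol regulatory elements in promoters, often beside a CCAAT box bound by NF-Y. RefSeq promoters (GRCh38.p14, from 250 bases before to 50 bases after the start site) matched 27 of the 31 genes. FASN, FDFT1, SQLE and ACAT2 had no entry. The 4 promoters shown belong to genes that rose in the Dox libraries, namely SREBF2, SCD, INSIG1 and DHCR7, and were chosen to show the motif with its neighbouring CCAAT box and 1 promoter with the CCAAT box alone. Capitals mark matches to the sterol regulatory element TCACNCCAC or its shorter core CACNCCAC, which lies inside it, and to CCAAT, on either strand. The SREBF2 promoter lies at chr22:41832855-41833154 (plus strand), the SCD promoter at chr10:100346983-100347282 (plus strand), the INSIG1 promoter at chr7:155297628-155297927 (plus strand) and the DHCR7 promoter at chr11:71448344-71448643 (minus strand).
SREBF2: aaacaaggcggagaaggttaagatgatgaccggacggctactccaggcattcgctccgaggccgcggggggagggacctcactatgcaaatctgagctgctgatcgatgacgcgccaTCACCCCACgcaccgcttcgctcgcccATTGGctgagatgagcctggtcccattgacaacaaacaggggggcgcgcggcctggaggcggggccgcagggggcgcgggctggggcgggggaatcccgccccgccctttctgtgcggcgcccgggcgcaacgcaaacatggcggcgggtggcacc
SCD: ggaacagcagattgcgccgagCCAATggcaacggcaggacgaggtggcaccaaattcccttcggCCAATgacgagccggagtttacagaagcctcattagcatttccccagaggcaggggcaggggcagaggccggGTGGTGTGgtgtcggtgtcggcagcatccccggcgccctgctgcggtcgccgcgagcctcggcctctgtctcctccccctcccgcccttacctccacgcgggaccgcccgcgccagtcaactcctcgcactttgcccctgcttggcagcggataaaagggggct
INSIG1: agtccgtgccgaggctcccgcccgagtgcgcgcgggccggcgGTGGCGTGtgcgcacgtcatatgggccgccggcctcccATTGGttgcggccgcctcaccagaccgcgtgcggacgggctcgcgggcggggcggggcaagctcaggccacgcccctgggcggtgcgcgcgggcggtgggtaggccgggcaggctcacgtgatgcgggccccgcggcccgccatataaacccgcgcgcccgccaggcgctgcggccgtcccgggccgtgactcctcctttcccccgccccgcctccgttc
DHCR7: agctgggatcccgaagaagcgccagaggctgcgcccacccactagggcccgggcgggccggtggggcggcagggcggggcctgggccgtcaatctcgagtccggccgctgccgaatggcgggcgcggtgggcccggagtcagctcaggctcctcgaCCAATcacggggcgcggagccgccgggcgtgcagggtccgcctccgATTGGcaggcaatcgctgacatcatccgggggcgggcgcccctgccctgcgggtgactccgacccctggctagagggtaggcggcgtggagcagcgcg

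The SREBF2 promoter held the full element at position -133 from the start site and a reversed CCAAT box at -106. The SCD promoter held the shorter core, reversed, at -114, with CCAAT boxes at -229 and -186. The INSIG1 promoter held the reversed shorter core at -208 and a reversed CCAAT box at -170. The DHCR7 promoter shown held a CCAAT box at -94 and a reversed one at -48, and no match to either form of the element. A further DHCR7 promoter, at chr11:71448994-71449293 (minus strand), held no match to either form or to CCAAT. The full element was present in 1 gene (SREBF2) and in 2.70% of the genes' 37 promoters, against 1.13% of all 35116 promoters in the table. The shorter core was present in 6 genes (ACACA, IDI1, INSIG1, SC5D, SCD and SREBF2) and in 18.9% of the 37 promoters, against 5.87% of all promoters. Of these genes INSIG1, SCD and SREBF2 rose in the Dox libraries, and ACACA, IDI1 and SC5D did not pass the test described below. The SC5D promoters overlap and hold the same match, which was counted in each. CCAAT was found in 20 genes and 64.9% of the 37 promoters, against 34.6% of all promoters. Here too the overlapping promoters of SC5D and of ACLY hold the same matches. The E-box CANNTG, searched in the same way, was found in 18 genes and 51.4% of the 37 promoters, against 68.7% of all promoters. A match is a description of letters in this window and not a binding site, and binding was not measured in these libraries.

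The libraries were of like depth, with 42880682 and 43429426 expected counts in the Dox libraries and 42744729 and 47798920 in the DMSO libraries. All 10 fibroblast markers were above 1 TPM (a transcript's share of the library, scaled by its length) in every library, and 4 rose and 3 fell in the Dox libraries. All 5 endothelial, all 4 melanocyte and all 6 adipocyte markers were under 1 TPM in every library, as were 5 of 6 keratinocyte, 4 of 5 leukocyte and 3 of 5 sebocyte markers. Among the markers of these other cell types LEP, PTPRC, CD68 and MUC1 rose, CD3E, AWAT1, MC5R, KRT5 and KRT1 were at 0 counts in every library, and the part of these markers in the results was not tested. The summed adipocyte markers were at 0.36 and 0.56 TPM in the Dox libraries and at 0.10 and 0.15 TPM in the DMSO libraries. The summed leukocyte markers were at 4.14 and 7.31 TPM in the Dox libraries and at 1.17 and 1.16 TPM in the DMSO libraries. The keratinocyte sum was 6.89 and 8.79 TPM in the Dox libraries and 5.57 and 5.57 TPM in the DMSO libraries, and the sebocyte sum was 3.42 and 5.69 TPM in the Dox libraries and 3.64 and 4.44 TPM in the DMSO libraries. The 2 genes of highest TPM in each library, small RNAs such as RN7SL1, held 34.4% and 42.3% of TPM in the Dox libraries and 43.9% and 43.8% in the DMSO libraries. Protein-coding genes held 9.11% and 14.9% in the Dox libraries and 10.4% and 10.8% in the DMSO libraries.

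In the Dox libraries 11 of the 31 genes rose, 0 fell and 20 did not pass edgeR's quasi-likelihood test at a Benjamini-Hochberg adjusted p of 0.05 over all 16749 tested genes. Over all tested genes 16.5% rose and 13.8% fell. At an unadjusted p under 0.05 by edgeR, 15 of the 31 were higher and 0 lower, against 22.5% and 20.1% of all tested genes. DESeq2 called 10 of the 31 higher and 0 lower, against 13.7% and 11.0% of all tested genes. The median log2 fold change of Dox over DMSO was 0.26 for the 31 genes and -0.00 for all tested genes, and 29 of the 31 had a fold change above 1. Both Dox libraries lay above both DMSO libraries for 22 of the 31, below them for 2, and overlapped them for 7, whereas 34.6% of all tested genes lay above and 34.5% below. In bulk RNA a change in the share of cells that express a gene and a change in RNA per cell cannot be told apart. The genes that rose were 3 of 18 sterol enzymes, 4 of 7 fatty acid enzymes and 4 of the 6 regulators and carrier. The 3 sterol calls made up 16.7% of that arm, a share near that of all tested genes. At a 1.5-fold threshold (edgeR's glmTreat) 3 of the 31 rose, namely SCD, FASN and DHCR7, against 4.7% of all tested genes. Each fit without 1 library takes its spread from the pair left whole, and the pairs were unlike. Replicates differed with a chi-square of 60.5 per degree of freedom in the Dox pair and of 2.40 in the DMSO pair. Without DMSO replicate 1 7 of the 31 rose and 0 fell (8.62% and 6.23% of all tested genes), and without DMSO replicate 2 6 rose and 0 fell (7.83% and 5.73%). Without Dox replicate 1 19 rose and 0 fell (26.0% and 26.7% of all tested genes), and without Dox replicate 2 21 rose and 2 fell (27.0% and 29.1%).

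**Figure D1:**
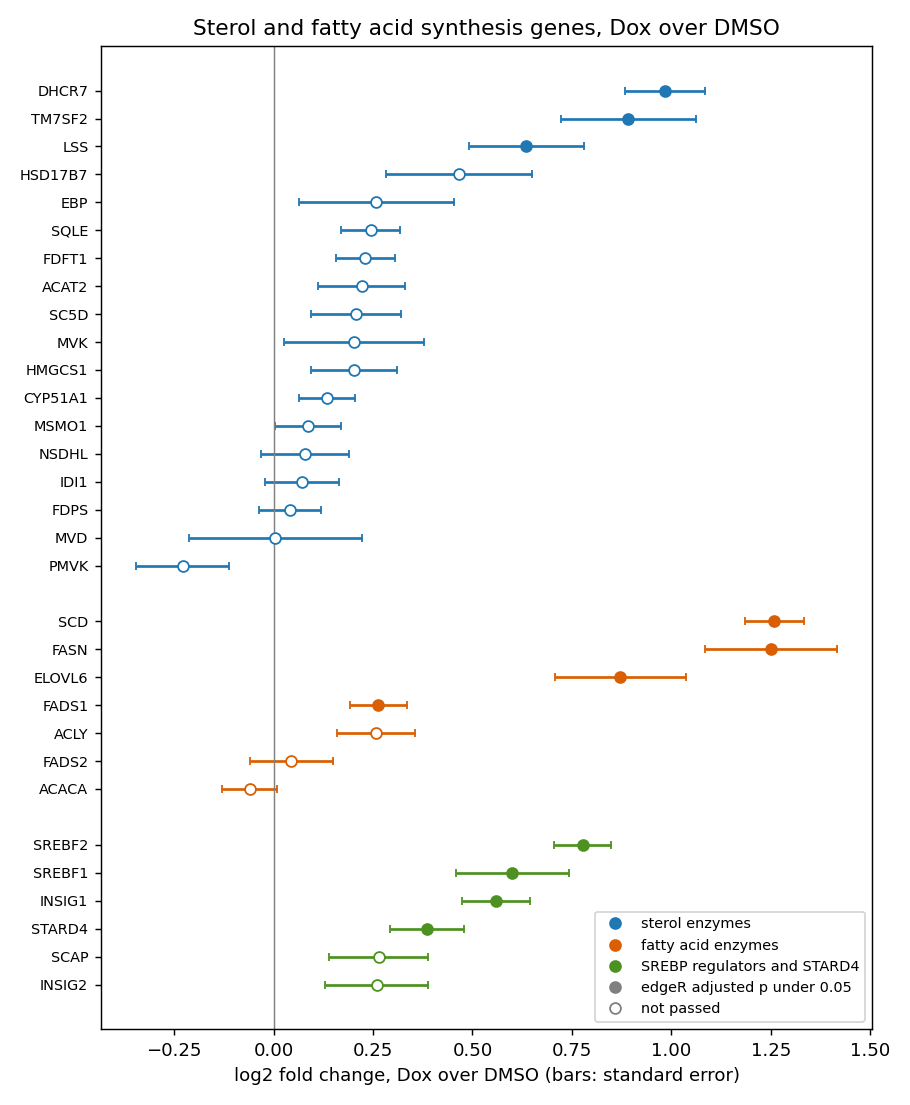
Log2 fold change of Dox over DMSO (horizontal axis) with its standard error for the 31 genes, grouped by arm; filled points passed the edgeR test at an adjusted p under 0.05, and open points did not. The 11 filled points all lie to the right of 0, led by SCD (1.26) and FASN (1.25). The enzymes that lead to farnesyl diphosphate, sorted among the sterol enzymes and not marked apart, lie between -0.23 (PMVK) and 0.22 (ACAT2).

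SREBF2 and SREBF1, which encode the SREBP factors, both rose in the Dox libraries, as did INSIG1, their sterol-dependent brake, and STARD4, a carrier of sterols between membranes. SREBF2 (chromosome 22, 41833079 to 41907308 in GRCh38) was at 63.0 and 66.6 CPM (counts relative to library size, TMM-scaled) in the Dox libraries and 37.8 and 37.8 CPM in the DMSO libraries. The Dox values were close together and clear of the DMSO values, a 1.71-fold difference (log2 fold change 0.78, SE 0.07, edgeR adjusted p = 0.00081). SREBF1 (chromosome 17, 17810399 to 17837002) was at 32.7 and 43.9 CPM in the Dox libraries and 25.4 and 25.2 CPM in the DMSO libraries. Both Dox libraries were higher, with Dox replicate 2 farther from the DMSO libraries (log2 fold change 0.60, SE 0.14, edgeR adjusted p = 0.023). The SREBF1 value does not separate the transcripts of SREBP-1a and SREBP-1c, since the counts are per gene.

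INSIG1 (chromosome 7, 155297776 to 155310235) was at 21.9 and 22.9 CPM in the Dox libraries and 15.1 and 15.4 CPM in the DMSO libraries. Its groups did not overlap and its Dox libraries were close to each other (log2 fold change 0.56, SE 0.08, edgeR adjusted p = 0.00492). INSIG2, a second brake of the same kind that SREBPs do not induce, was at 23.4 and 18.3 CPM in the Dox libraries and 17.1 and 17.7 CPM in the DMSO libraries (log2 fold change 0.26, SE 0.13, edgeR adjusted p = 0.18). SCAP, the sterol-sensing escort, was at 37.2 and 47.7 CPM in the Dox libraries and 35.8 and 34.9 CPM in the DMSO libraries (log2 fold change 0.26, SE 0.12, edgeR adjusted p = 0.157). For both genes 1 Dox library lay close to the DMSO libraries and the other well above them. STARD4 (chromosome 5, 111496033 to 111512590) was at 62.2 and 53.1 CPM in the Dox libraries and 44.0 and 44.2 CPM in the DMSO libraries, again without overlap (log2 fold change 0.39, SE 0.09, edgeR adjusted p = 0.0245).

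All 6 of these genes had both Dox libraries above both DMSO libraries, as had 34.6% of all tested genes. The median log2 fold change of the 6 was 0.47. SREBF2 was called whichever library was left out. Without DMSO replicate 1 the edgeR adjusted p was 0.0531 for SREBF1, 0.079 for INSIG1 and 0.201 for STARD4. Without DMSO replicate 2 the edgeR adjusted p was 0.0647 for SREBF1, 0.0668 for INSIG1 and 0.196 for STARD4, so only SREBF2 passed in either case. With offsets for GC content SCAP also passed (log2 fold change 0.28, edgeR adjusted p = 0.00478). SREBF1 shares 556 exon bases with RAI1 on the opposite strand, and whether the counting used strand is not given in the sources used here.

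**Figure D2:**
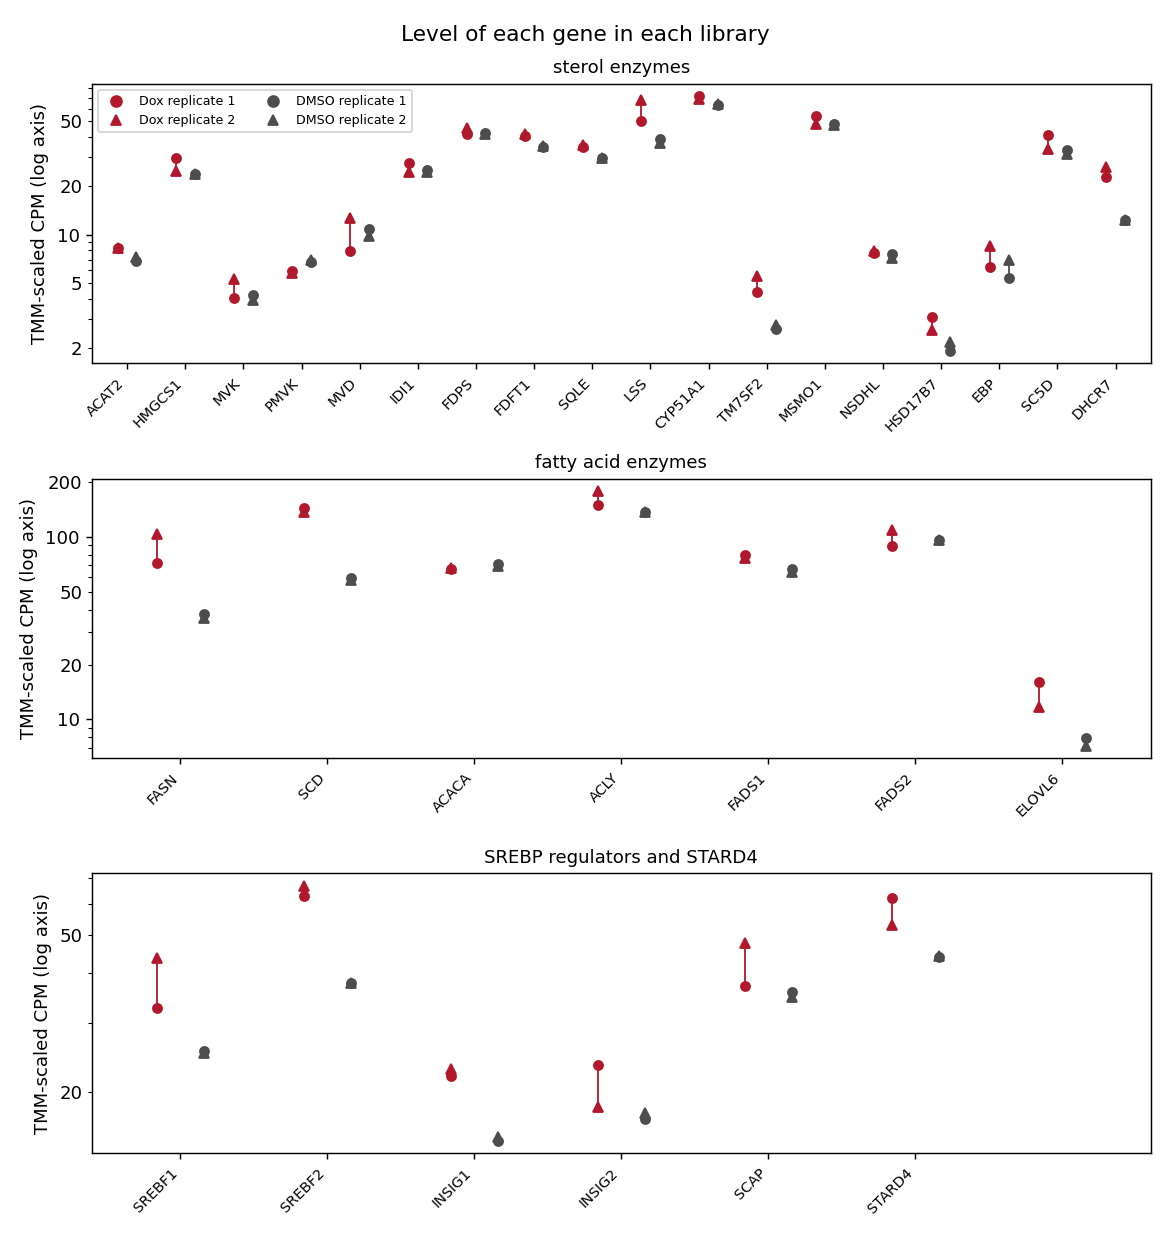
TMM-scaled CPM (log axis) of the 31 genes, with a panel for each arm and one for the regulators and STARD4. For each gene the Dox libraries stand at the left in red and the DMSO libraries at the right in grey, with circles for replicate 1, triangles for replicate 2 and a line joining them. SREBF2, SCD and DHCR7 show closely spaced replicates with a clear gap between groups, and FASN, LSS and SREBF1 show a wide gap between the 2 Dox libraries.

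None of the 7 enzymes that lead to farnesyl diphosphate passed the test in either direction, at an adjusted or an unadjusted p under 0.05 by edgeR (0 of 7) or by DESeq2 (0 of 7). These are ACAT2 and HMGCS1, which condense acetyl-CoA units, the kinases MVK and PMVK, the decarboxylase MVD, the isomerase IDI1 and the prenyl synthase FDPS. Their log2 fold changes ran from -0.23 to 0.22 with a median of 0.07, and the groups overlapped for 4 of the 7. Of all tested genes, 16.5% rose and 13.8% fell by edgeR. Both Dox libraries lay above both DMSO libraries for 34.6% of them and below for 34.5%. HMGCS1, which makes HMG-CoA and is a well-known SREBP-2 target, was at 29.7 and 24.6 CPM in the Dox libraries and 23.7 and 23.5 CPM in the DMSO libraries. The second Dox library was barely above the DMSO libraries (log2 fold change 0.20, SE 0.11, edgeR adjusted p = 0.206). FDPS, which joins isoprene units into farnesyl diphosphate, was at 41.8 and 45.5 CPM in the Dox libraries and 42.7 and 42.1 CPM in the DMSO libraries, an overlap (log2 fold change 0.04, SE 0.08, edgeR adjusted p = 0.719). PMVK alone among the 18 sterol enzymes lay below, at 5.96 and 5.80 CPM in the Dox libraries and 6.78 and 6.996 CPM in the DMSO libraries (log2 fold change -0.23, SE 0.12, edgeR adjusted p = 0.189).

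MVD, which makes isopentenyl diphosphate, was at 7.88 and 12.7 CPM in the Dox libraries and 10.8 and 9.75 CPM in the DMSO libraries. The Dox libraries lay on opposite sides of the DMSO libraries, so that the mean difference was 0.00 on the log2 scale (SE 0.22, edgeR adjusted p = 0.99). Its call rested on which Dox library was kept, since MVD was called higher without Dox replicate 1 and lower without Dox replicate 2, where it fell by 0.38 on the log2 scale (edgeR adjusted p = 0.000268). MVK, likewise called higher without Dox replicate 1, was at 4.07 and 5.31 CPM in the Dox libraries and 4.24 and 3.92 CPM in the DMSO libraries. IDI1 was at 27.6 and 24.4 CPM in the Dox libraries and 25.04 and 24.5 CPM in the DMSO libraries, and was called higher without Dox replicate 2, as was HMGCS1. MVK shares 306 exon bases with MMAB and ACAT2 397 with TCP1, both on the opposite strand.

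From squalene onward 3 of 11 enzymes (27.3%) rose, 0 fell and 8 did not pass, whereas 16.5% of all tested genes rose and 13.8% fell. All 11 had a log2 fold change above 0, with a median of 0.24, where the median of all tested genes was -0.00. By edgeR 6 were higher and 0 lower at an unadjusted p under 0.05, against 22.5% and 20.1% of all tested genes. DESeq2 called 3 higher and 0 lower, against 13.7% and 11.0% of all tested genes. The 3 that rose were DHCR7, which catalyses the last step of the Kandutsch-Russell route to cholesterol, TM7SF2, a sterol C14-reductase, and LSS, which closes the sterol ring. DHCR7 (chromosome 11, 71428193 to 71452868) was at 22.7 and 26.0 CPM in the Dox libraries and 12.3 and 12.4 CPM in the DMSO libraries. Its level in the Dox libraries was thus 1.98 times that in the DMSO libraries (log2 fold change 0.98, SE 0.10, edgeR adjusted p = 0.00119). TM7SF2 (chromosome 11, 65111845 to 65116384) was at 4.44 and 5.56 CPM in the Dox libraries and 2.61 and 2.77 CPM in the DMSO libraries, from 190 and 252 Dox counts and 109 and 130 DMSO counts (log2 fold change 0.89, SE 0.17, edgeR adjusted p = 0.0109). LSS (chromosome 21, 46188141 to 46228824) was at 50.1 and 68.1 CPM in the Dox libraries and 39.2 and 36.9 CPM in the DMSO libraries (log2 fold change 0.64, SE 0.14, edgeR adjusted p = 0.0203). For all 3 both Dox libraries lay above both DMSO libraries, as for 34.6% of all tested genes, and Dox replicate 2 was the higher Dox library.

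DHCR7 and TM7SF2 were called whichever library was left out, and LSS was not called without DMSO replicate 2 (edgeR adjusted p = 0.0567). FDFT1, the squalene synthase that commits farnesyl diphosphate to sterols, was at 40.4 and 41.97 CPM in the Dox libraries and 34.9 and 35.3 CPM in the DMSO libraries. SQLE, the squalene epoxidase and a rate-limiting enzyme, was at 34.9 and 35.5 CPM in the Dox libraries and 29.6 and 29.9 CPM in the DMSO libraries. Neither gene overlapped between groups, yet both lay just outside the threshold, with a log2 fold change of 0.23 (SE 0.07, edgeR adjusted p = 0.0571) for FDFT1 and 0.24 (SE 0.07, edgeR adjusted p = 0.0504) for SQLE. With offsets for GC content both passed (edgeR adjusted p = 0.0107 for FDFT1 and 0.0127 for SQLE), and SQLE also passed with RLE scaling and with protein-coding genes alone. Neither was called without DMSO replicate 1 or DMSO replicate 2. With 1 library left out in turn, the log2 fold change ran from 0.20 to 0.25 for FDFT1 and from 0.23 to 0.25 for SQLE.

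The demethylating, isomerising and desaturating enzymes in between did not pass the edgeR test with all 4 libraries. Without Dox replicate 1 the log2 fold change was 0.09 for CYP51A1 and -0.01 for MSMO1, and without Dox replicate 2 it was 0.16 and 0.17. Both of these fits take their spread from the DMSO pair alone, so the number of enzymes called in them is not read here. CYP51A1, the lanosterol C14-demethylase, was at 71.4 and 68.7 CPM in the Dox libraries and 63.4 and 64.2 CPM in the DMSO libraries (log2 fold change 0.13, SE 0.07, edgeR adjusted p = 0.196). MSMO1, the C4-methyl oxidase, was at 53.7 and 47.9 CPM in the Dox libraries and 48.2 and 47.5 CPM in the DMSO libraries, and the groups overlapped (log2 fold change 0.09, SE 0.08, edgeR adjusted p = 0.464). Its partners in C4 demethylation were NSDHL (log2 fold change 0.08, SE 0.11) and HSD17B7 (0.47, SE 0.18, edgeR adjusted p = 0.104), neither of which passed. HSD17B7 had only 133 and 116 counts in the Dox libraries and 80 and 102 in the DMSO libraries, and its near copy HSD17B7P2 had 32 and 51 Dox counts and 27 and 42 DMSO counts, so reads could be split between them. The isomerase EBP (0.26, SE 0.19) and the C5-desaturase SC5D (0.21, SE 0.11) did not pass either. EBP differed within each pair, with 6.31 and 8.49 CPM in the Dox libraries and 5.39 and 6.97 CPM in the DMSO libraries.

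Of the 7 fatty acid enzymes 4 (57.1%) rose, 0 fell and 3 did not pass, whereas 16.5% of all tested genes rose and 13.8% fell. The median log2 fold change of the 7 was 0.26. By edgeR 5 were higher and 0 lower at an unadjusted p under 0.05, against 22.5% and 20.1% of all tested genes. DESeq2 called 3 higher and 0 lower, against 13.7% and 11.0% of all tested genes. SCD, the stearoyl-CoA desaturase that makes monounsaturated fatty acids (chromosome 10, 100347124 to 100364834), was at 144 and 137 CPM in the Dox libraries and 59.6 and 57.9 CPM in the DMSO libraries. The replicates lay close together on both sides of a 2.39-fold difference (log2 fold change 1.26, SE 0.07, edgeR adjusted p = 0.000182). FASN, the synthase that builds palmitate (chromosome 17, 82078333 to 82098332), was at 71.7 and 103 CPM in the Dox libraries and 37.6 and 35.9 CPM in the DMSO libraries. Its mean difference was of the same size at 2.38-fold, but the Dox libraries stood apart from each other (log2 fold change 1.25, SE 0.17, edgeR adjusted p = 0.00311). ELOVL6, which lengthens palmitate to stearate (chromosome 4, 110045846 to 110199199), was at 15.9 and 11.7 CPM in the Dox libraries and 7.93 and 7.19 CPM in the DMSO libraries (log2 fold change 0.87, SE 0.16, edgeR adjusted p = 0.0104). SCD, FASN and ELOVL6 act on the same chain from palmitate to oleate, and all 3 were called whichever library was left out.

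FADS1, the delta-5 desaturase of polyunsaturated fatty acids (chromosome 11, 61799625 to 61829318), was at 79.8 and 77.2 CPM in the Dox libraries and 66.5 and 64.2 CPM in the DMSO libraries. The groups did not overlap, and the difference was 1.20-fold (log2 fold change 0.26, SE 0.07, edgeR adjusted p = 0.0349). It was not called without DMSO replicate 1 (edgeR adjusted p = 0.368) or DMSO replicate 2 (edgeR adjusted p = 0.485), nor by DESeq2, nor without the filter on low counts. FADS2, the delta-6 desaturase next to it, was at 89.7 and 109 CPM in the Dox libraries and 96.1 and 96.5 CPM in the DMSO libraries, on both sides of the DMSO level (log2 fold change 0.04, SE 0.10, edgeR adjusted p = 0.775). FADS2 was called higher without Dox replicate 1 and lower without Dox replicate 2, where it fell by 0.10 on the log2 scale (edgeR adjusted p = 0.0224). FADS1 and FADS2 share 490 exon bases on opposite strands, so some of their reads could be exchanged.

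The enzymes that supply carbon to palmitate did not pass. ACLY, which makes cytosolic acetyl-CoA from citrate, was at 150 and 178 CPM in the Dox libraries and 137 and 138 CPM in the DMSO libraries, without overlap but short of the threshold (log2 fold change 0.26, SE 0.10, edgeR adjusted p = 0.0952). With offsets for GC content ACLY passed (edgeR adjusted p = 0.0191), as it did with sample quality weights. ACACA, the acetyl-CoA carboxylase that makes malonyl-CoA, lay slightly below, at 66.5 and 68.0 CPM in the Dox libraries and 70.97 and 69.3 CPM in the DMSO libraries (log2 fold change -0.06, SE 0.07, edgeR adjusted p = 0.546). On the log2(TPM + 1) scale the ACACA difference was 0.07, where the median of all tested genes was 0.06.

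The sterol and fatty acid arms were also compared within each library as levels per transcript length, by summing deposited TPM over each arm. The 18 sterol enzymes summed to 61.8 and 103 TPM in the Dox libraries and 63.1 and 64.2 TPM in the DMSO libraries, so the Dox values lay on both sides of the DMSO values. The 7 fatty acid enzymes summed to 36.5 and 63.7 TPM in the Dox libraries and 33.0 and 34.1 TPM in the DMSO libraries. The fatty acid arm stood at 0.591 and 0.621 of the sterol arm in the Dox libraries and at 0.522 and 0.530 in the DMSO libraries. Both Dox ratios were thus above both DMSO ratios, and with 2 libraries a group no test was run on them. Without the most abundant enzyme of each arm, FDPS and ACLY, the ratios were 0.562 and 0.577 in the Dox libraries and 0.492 and 0.489 in the DMSO libraries. Without SCD and FASN, chosen for removal after their values were seen, they were 0.427 and 0.453 in the Dox libraries and 0.443 and 0.452 in the DMSO libraries, which overlap. SCD made up 19.3% and 16.9% of the fatty acid sum in the Dox libraries and 10.0% and 9.69% in the DMSO libraries, and FASN made up 8.44% and 10.1% in the Dox libraries and 5.15% and 5.11% in the DMSO libraries.

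**Figure D3:**
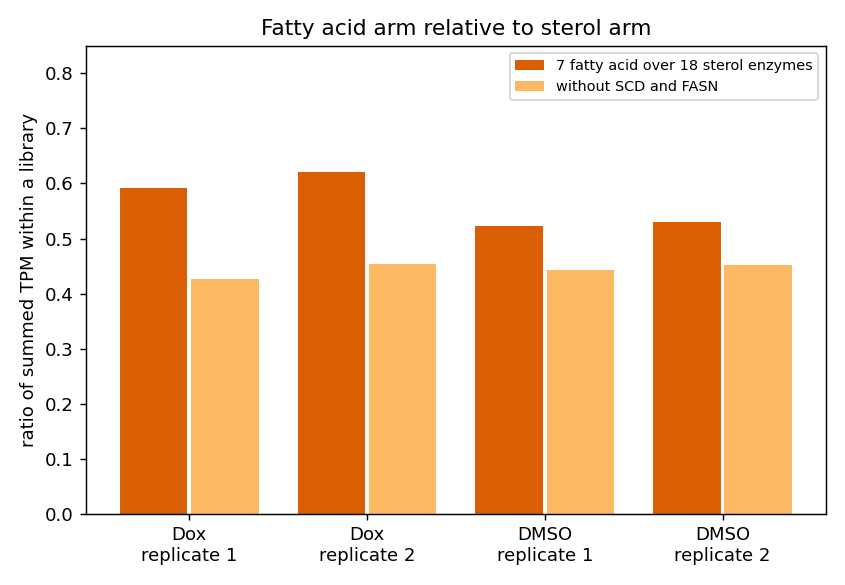
Ratio of summed TPM of the fatty acid arm to that of the sterol arm in each library (bars from 0), with all enzymes and without SCD and FASN, Dox libraries left of DMSO libraries. With all enzymes the Dox bars stand at 0.591 and 0.621 above the DMSO bars at 0.522 and 0.530, and without SCD and FASN the groups overlap.

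Across single genes FDPS had the highest level per length among the 31, at 13.8 and 23.4 TPM in the Dox libraries and 15.6 and 15.6 TPM in the DMSO libraries. SCD was at 7.06 and 10.8 TPM in the Dox libraries and 3.30 and 3.30 TPM in the DMSO libraries, and FASN at 3.08 and 6.40 TPM in the Dox libraries and 1.70 and 1.74 TPM in the DMSO libraries. All 31 genes were higher in Dox replicate 2 than in Dox replicate 1 on this scale, alongside the protein-coding share of TPM given above. On the TPM scale 16 of the 31 had both Dox libraries above both DMSO libraries, against 26.6% of all tested genes. Limma on log2(TPM + 1) called 0 of the 31 higher (3.56% of all tested genes), with 5 at an unadjusted p under 0.05, and on log2(TPM + 0.1) 0 (3.8% of all tested genes), with 4 at an unadjusted p under 0.05. After rescaling TPM over protein-coding genes alone, an alternative chosen after seeing the data, limma called 10 of the 31 higher (14.8% of the protein-coding genes tested), the same genes as edgeR but for FADS1. On that rescaled basis the sterol arm summed to 678 and 687 TPM in the Dox libraries and 605 and 592 TPM in the DMSO libraries, and the fatty acid arm to 401 and 426 TPM in the Dox libraries and 316 and 314 TPM in the DMSO libraries.

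The 2 Dox libraries differed from each other in a way that followed base composition. Over the 31 genes the log2 ratio of Dox replicate 1 to Dox replicate 2 (TMM-scaled CPM) ran from -0.69 (MVD) to 0.44 (ELOVL6), and that of the DMSO pair ran from -0.37 to 0.15. Of the 12 genes whose longest transcript had at least 55% G and C, 11 were lower in Dox replicate 1, and all 9 genes under 45% were higher in it. Spearman's rho with GC content over the 31 genes was -0.869 for the Dox pair, 0.106 for the DMSO pair and 0.12 for Dox over DMSO, given as descriptions of genes that share the same libraries. Over all tested genes the rho was -0.59 for the Dox pair, -0.0296 for the DMSO pair and -0.0269 for Dox over DMSO. FASN, LSS and SREBF1, with 65.3%, 58.3% and 62.8% GC, had their higher value in Dox replicate 2, and ELOVL6 and STARD4, with 41.2% and 34.2% GC, had theirs in Dox replicate 1. With offsets for GC content all 11 genes that rose remained called, with log2 fold changes of 1.26 for SCD, 1.25 for FASN, 1.01 for DHCR7, 0.81 for SREBF2 and 0.25 for STARD4, and FDFT1, SQLE, ACLY and SCAP were added. The part of GC content in the spread of the Dox libraries was not tested.

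**Figure D4:**
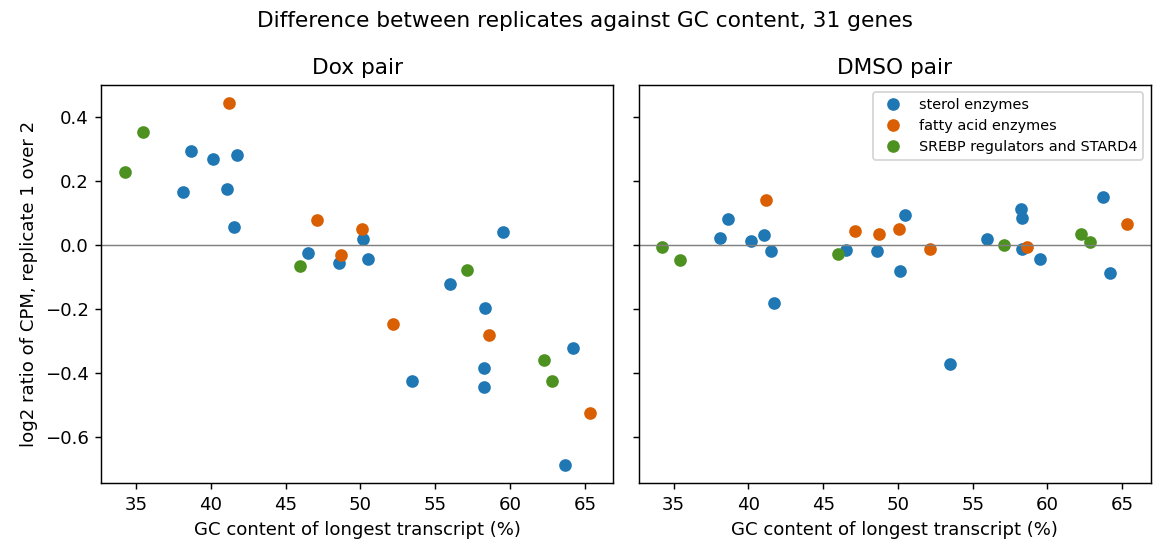
Log2 ratio of replicate 1 to replicate 2 in TMM-scaled CPM (vertical axis) against the GC content of the longest transcript in percent (horizontal axis) for the 31 genes, Dox pair left of DMSO pair. Points of the Dox pair slope downward from 0.44 (ELOVL6) to -0.69 (MVD), and those of the DMSO pair show no such slope.

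Genes around the pathway were read from the same fit, in which 16.5% of all tested genes rose and 13.8% fell. Counts given below without 1 Dox library take their spread from the DMSO pair alone. The share that rose and the share that fell were 8.33% and 8.33% in the isoprenoid list, 10% and 20% in the list of fatty acid supply, and 21.1% and 21.1% in that of fatty acid oxidation. They were 41.7% and 0% in the list of SREBP processing, 60% and 20% in that of efflux, 38.5% and 0% in that of uptake, and 30% and 0% in that of esterification. Of 12 genes that process SREBPs or sense sterols with them, 5 rose, 0 fell and 7 were not called (median 0.17 on the log2 scale; by edgeR 5 higher and 0 lower at an unadjusted p under 0.05; DESeq2 called 5 higher and 0 lower). PGRMC2, a haem-binding membrane protein, rose by 0.65 (SE 0.12, edgeR adjusted p = 0.0086). ERLIN2 and ERLIN1, scaffold proteins that bind cholesterol in the endoplasmic reticulum, rose by 0.49 (SE 0.07, edgeR adjusted p = 0.00388) and 0.32 (SE 0.08, edgeR adjusted p = 0.024). Without DMSO replicate 2 none of these 12 was called by edgeR (3 higher and 0 lower at an unadjusted p under 0.05), whereas 2 of them were called without DMSO replicate 1. Of 12 genes of the isoprenoid branches that leave the pathway at farnesyl diphosphate, 1 rose, 1 fell and 10 did not pass. NUS1, a subunit of the enzyme that makes dolichol chains, rose by 0.43 (SE 0.11, edgeR adjusted p = 0.0268) but was not called without either DMSO library. COQ2, which attaches the tail of coenzyme Q, fell by 0.65 (SE 0.10, edgeR adjusted p = 0.00571), and the prenyltransferase subunits RABGGTA (0.29, SE 0.14) and PGGT1B (0.19, SE 0.09) did not pass. In this list 3 rose and 3 fell with GC offsets, which called 3842 genes higher and 3646 lower among all tested genes. Without Dox replicate 1 and Dox replicate 2 in turn, the log2 fold change of PGGT1B was 0.07 and 0.29.

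Genes of cholesterol efflux and of the sterol-activated LXR receptors moved in both directions, with 6 of 10 higher, 2 lower and 2 not passing (median log2 fold change 0.59). ABCA1, the transporter that loads cholesterol onto apolipoproteins and a classical LXR target, was at 126 and 127 CPM in the Dox libraries and 59.9 and 58.0 CPM in the DMSO libraries. Its replicates were close together in both groups (log2 fold change 1.10, SE 0.07, edgeR adjusted p = 0.000246). LPCAT3, a phospholipid-remodelling LXR target, rose by 0.86 (edgeR adjusted p = 0.00197, SE 0.10), as did the lipoprotein receptor SCARB1 by 0.35 (SE 0.09, edgeR adjusted p = 0.0298). NR1H3, which encodes LXR-alpha itself, was at 2.74 and 2.58 CPM in the Dox libraries and 4.96 and 4.56 CPM in the DMSO libraries, and so fell by 0.84 on the log2 scale (SE 0.15, edgeR adjusted p = 0.00812). CYP7B1, an oxysterol hydroxylase named here after its value was seen, had 525 and 416 counts in the Dox libraries and 31 and 46 counts in the DMSO libraries (log2 fold change 3.62, SE 0.23, edgeR adjusted p = 0.000221). Without DMSO replicate 1 and DMSO replicate 2 in turn, 4 and 3 of these genes rose and 1 and 1 fell, and SCARB1 was not called in either case. Without Dox replicate 2, 5 rose and 4 fell, and DESeq2 called 4 higher and 1 lower.

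Of 13 genes of cholesterol uptake and transport inside the cell, 5 rose, 0 fell and 8 did not pass (median 0.31; by edgeR 7 higher and 0 lower at an unadjusted p under 0.05; DESeq2 called 5 higher and 0 lower). The lysosomal acid lipase LIPA, which frees cholesterol from incoming esters, was at 83.2 and 76.3 CPM in the Dox libraries and 44.2 and 44.6 CPM in the DMSO libraries (log2 fold change 0.85, SE 0.08, edgeR adjusted p = 0.000782). NPC2, which passes that cholesterol to the lysosomal membrane, was at 54.6 and 58.6 CPM in the Dox libraries and 31.2 and 32.3 CPM in the DMSO libraries (log2 fold change 0.84, SE 0.08, edgeR adjusted p = 0.000811). GRAMD1B, which moves cholesterol from the plasma membrane to the endoplasmic reticulum, rose by 0.79 (SE 0.08, edgeR adjusted p = 0.00121). All 3 kept clear of the DMSO libraries and were called whichever library was left out. Of these 13 genes, 9 rose and 1 fell without Dox replicate 1, and 8 rose and 1 fell without Dox replicate 2.

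Among 10 tested genes of esterification and lipid droplets (of 12 listed, PLIN4 and CIDEC not having passed the filter), 3 rose, 0 fell and 7 did not pass. By edgeR 6 were higher and 0 lower at an unadjusted p under 0.05, and DESeq2 called 4 higher and 0 lower. NCEH1, which hydrolyses cholesteryl esters, was at 39.4 and 37.5 CPM in the Dox libraries and 15.7 and 15.3 CPM in the DMSO libraries (log2 fold change 1.31, SE 0.08, edgeR adjusted p = 0.000221). The triglyceride lipase PNPLA2 rose by 0.65 (edgeR adjusted p = 0.0178, SE 0.14), whereas the droplet coat gene PLIN3 did not pass (0.41, SE 0.13, edgeR adjusted p = 0.0509). PNPLA2 was not called without DMSO replicate 1 or DMSO replicate 2, with an edgeR adjusted p of up to 0.0547. Of these 10 genes, 7 rose without Dox replicate 1 and 7 without Dox replicate 2.

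In the list of fatty acid supply, activation and elongation, 2 of 20 tested genes rose, 4 fell and 14 did not pass (of 22 listed, ELOVL7 and THRSP not having passed the filter). SCD5, the second human stearoyl-CoA desaturase, was at 51.6 and 53.0 CPM in the Dox libraries and 27.0 and 27.5 CPM in the DMSO libraries, and rose by 0.94 (SE 0.07, edgeR adjusted p = 0.00045). ELOVL5, which lengthens polyunsaturated fatty acids, was at 136 and 129 CPM in the Dox libraries and 183 and 185 CPM in the DMSO libraries, and fell by 0.48 on the log2 scale (SE 0.07, edgeR adjusted p = 0.00498). MID1IP1, an activator of acetyl-CoA carboxylase, fell by 0.71 (SE 0.12, edgeR adjusted p = 0.00681), and HACD2, a dehydratase of the elongation cycle, fell by 0.45 (SE 0.10, edgeR adjusted p = 0.0164). SCD5 and MID1IP1 were called whichever library was left out, and ELOVL5 and HACD2 were not called without DMSO replicate 1 or DMSO replicate 2 (edgeR adjusted p of up to 0.101 and 0.12). Without DMSO replicate 1 only 1 gene of this list fell, as without DMSO replicate 2, and 6 rose without Dox replicate 1 and 5 without Dox replicate 2.

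Of 19 tested genes of fatty acid oxidation and its regulators, 4 rose, 4 fell and 11 did not pass (of 20 listed, ACADL not having passed the filter), with a median log2 fold change of 0.03. CPT1A, which admits fatty acids to mitochondria, was at 31.8 and 32.3 CPM in the Dox libraries and 51.2 and 50.7 CPM in the DMSO libraries, and fell by 0.67 on the log2 scale (SE 0.07, edgeR adjusted p = 0.00129). The lipid-sensing receptors PPARA and PPARD rose by 0.39 (SE 0.08, edgeR adjusted p = 0.0134) and 0.38 (SE 0.09, edgeR adjusted p = 0.0189). CPT1A was called whichever library was left out, whereas PPARA and PPARD were not called without DMSO replicate 1 or DMSO replicate 2. By edgeR 1 gene of this list rose and 2 fell without DMSO replicate 1, and 0 rose and 2 fell without DMSO replicate 2 (1 higher at an unadjusted p under 0.05). Without Dox replicate 2, 6 rose and 8 fell.

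**Figure D5:**
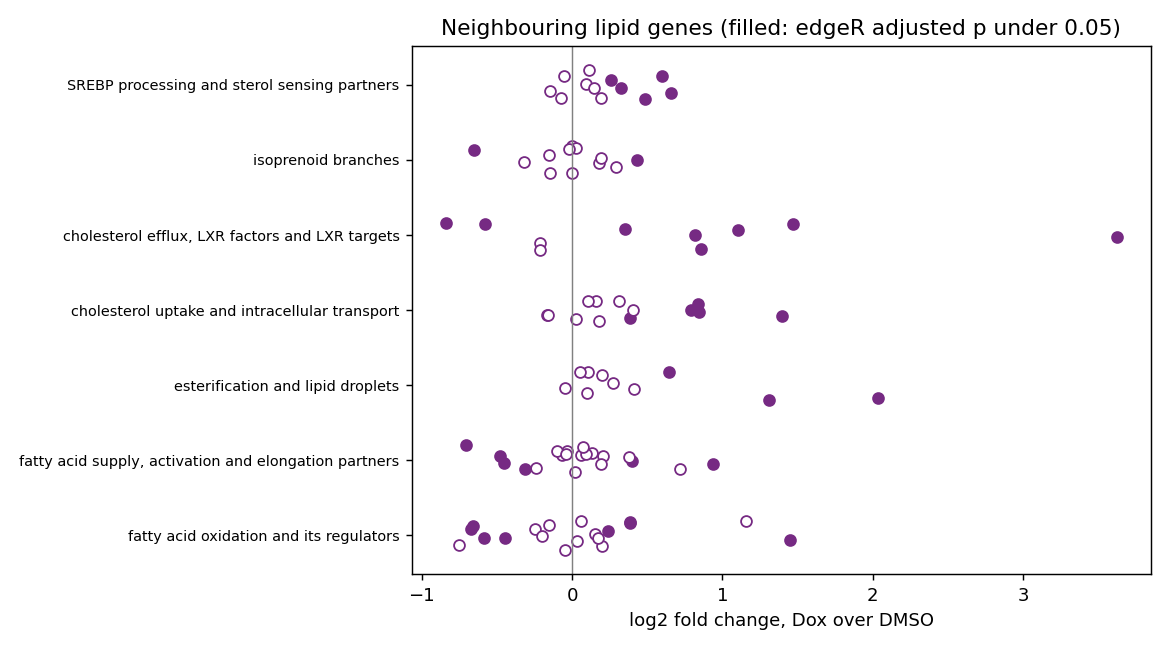
Log2 fold change of Dox over DMSO for each tested gene of the 7 surrounding lists, 1 row per list, with vertical offsets only to separate points, filled where the edgeR adjusted p was under 0.05. The efflux list spans from NR1H3 (-0.84) to CYP7B1 (3.62), and the isoprenoid list centres on 0 with a median of -0.00.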

How the data were processed

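RNA sequencing of 2 Dox and 2 DMSO libraries was grouped by the treatment label. The submitters' processing notes name cutadapt, STAR, Picard, RSEM and hg38, with versions, annotation and strand setting not given in the sources used here. The deposited expected counts are estimated reads per gene, per the file headers. The deposited TPM values are scaled by effective length and to one total per library, per the file headers. In the series design the 24 hours of treatment come before the 10 days, and the treatment protocol can be read in the other order.

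Expected counts were rounded, filtered with edgeR's filterByExpr (minimum count 10, minimum total 15) and scaled by TMM. Testing used edgeR's quasi-likelihood test with group as the only term. Benjamini-Hochberg adjustment ran over all 16749 tested genes, with a threshold of 0.05. The standard error is the size of the log2 fold change divided by the square root of F. Ensembl identifiers linked 99.54% of all genes and all 31 members to GENCODE 29 (GRCh38), and coordinates are 1-based from it. Promoters are from RefSeq (GRCh38.p14). GC content is that of each gene's longest transcript. The tools were edgeR 4.0.16, DESeq2 1.42.0 and limma 3.58.1 in R 4.3.3, and Python 3.11.15. The fit was also run on simulated counts with the same dispersion in both groups and no GC trend. That run cannot show how the fit performs where the pairs differ in spread, as they do here.

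The libraries held 16745 and 16868 genes with at least 10 counts in Dox, and 16107 and 16367 in DMSO. Replicates differed with a chi-square of 60.5 per degree of freedom in the Dox pair and of 2.40 in the DMSO pair. The fit took each library as a replicate and used the same dispersion of a gene for both groups. The labels do not tell whether the libraries of a group came from separate cultures. Members, surrounding lists, markers and motifs were chosen with earlier results of these data known. Values in every library are given for members past the threshold, for SREBF1, SREBF2, INSIG1 and SCAP, and for members against their arm's direction. Of each surrounding list the 3 genes of smallest adjusted p in its commoner direction with a mean of at least 1 TPM are named, and the 1 of smallest adjusted p in the other direction if it passed. Where as many genes rose as fell, higher was taken as the commoner direction. The value of 1 gene that this rule names is not reported here. Alternatives were RLE scaling, DESeq2, no filter, limma on TPM, a 1.5-fold threshold, the replicate number as a block, GC offsets, protein-coding genes alone, sample quality weights and leaving out each library.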

Additional observations from a re-analysis of the deposited data

How the results depend on the processing

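Limma on log2(TPM + 1) called 596 genes higher and 198 lower in the Dox libraries, limma on log2(TPM + 0.1) 637 and 198, and the 1.5-fold threshold 787 and 480, against 2764 and 2309 by edgeR. These 3 alternatives in turn called 0, 0 and 1 sterol enzymes, 0, 0 and 2 fatty acid enzymes and 0, 0 and 0 of the regulators and STARD4 higher. At an unadjusted p under 0.05 by the same tools they had 2, 2 and 2 sterol enzymes, 3, 2 and 3 fatty acid enzymes and 0, 0 and 1 of the regulators and STARD4. The median of all tested genes shifted to 0.06 and 0.13 on the TPM scales and to 0.12 without a filter. GC offsets gave 3646 lower genes and 5 higher sterol enzymes, and GC offsets with the replicate block 3745 and 5. The correlation over genes of same-numbered deviations was 0.0383. It cannot decide whether replicate numbers pair the libraries, since the Dox pair followed GC content (Spearman's rho -0.59) and the DMSO pair hardly did (-0.0296). With the number as a block 2972 genes were higher and 2511 lower, with 3 sterol, 4 fatty acid and 4 regulator genes higher. Leaving out 1 library gave 1368 to 4654 genes higher and 1000 to 5017 lower, 2 to 11 sterol enzymes higher and 0 to 1 lower, 3 to 6 fatty acid enzymes higher and 0 to 1 lower, and 1 to 5 of the regulators and STARD4 higher. Without the most abundant enzyme of each arm the mean ratio of the arms was 0.570 in Dox and 0.491 in DMSO, against 0.606 and 0.526 with all enzymes. The shorter core was in 6 genes. Signs turned for genes that had not passed. MVD was at -0.031 with no filter, -0.025 with the replicate block and -0.028 with sample quality weights. With 1 library left out, log2 fold changes ran from -0.38 to 0.30 for MVD, -0.0043 to 0.37 for MVK, -0.031 to 0.16 for IDI1, -0.022 to 0.088 for FDPS, -0.010 to 0.17 for MSMO1 and -0.10 to 0.17 for FADS2. ACACA was at 0.072 and 0.084 on the TPM scales, and PGGT1B at -0.13 on protein-coding TPM, an alternative chosen after seeing the data. The cause of these changes was not tested. A group left with 1 library was assumed to vary like the other. Depth limits HSD17B7, with 80 to 133 counts a library.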

Other observations

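RSEM's effective length of a gene averages over its transcripts by their estimated abundance, so a difference can come with another mix of transcripts. It also differed by library without reads: KRT5, at 0 counts, was at 759 and 763 bases in the Dox libraries and 765 and 767 in the DMSO libraries. The part of such a shift in the counts below was not tested. Effective length did not overlap between groups for 11 of the 31 genes, being longer in both Dox libraries for 6 and shorter for 5. The 5 differed in their means by -0.10% (SCD), -0.64% (PMVK), -1.26% (NSDHL), -2.22% (IDI1) and -7.58% (MVD). Over all tested genes effective length was longer in both Dox libraries for 11.7% and shorter for 40.5%, and nothing particular to the 31 genes is read from these counts. HSD17B7 differed most, at 1201 and 1308 bases in the Dox libraries and 857 and 1070 bases in the DMSO libraries, a difference of the means of 30.2%. This gene had few counts and a near copy, as described above. ACAT2 was at 2034 and 1952 bases in the Dox libraries and 1828 and 1808 bases in the DMSO libraries, a difference of 9.65%. MVD was shorter in the Dox libraries, at 1152 and 1248 bases, against 1272 and 1325 bases in the DMSO libraries. SCD, the gene of the largest fold change among the 31, kept nearly the same effective length, at 5047 and 5051 bases in the Dox libraries and 5054 and 5055 bases in the DMSO libraries.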
